A study of Mus musculus with 16 samples.

Results

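Rapamycin was tested on mouse brain microvascular endothelial cells (mBMEC) that had lost Ccm3, and the comparison rests on 6 of the 16 RNA-seq libraries of the series: 3 from Ccm3 KO cells that had rapamycin at 100 nM over 24 h (KO+R) and 3 from untreated KO cells (KO), set against each other by biological replicate number. The cells came from the brains of 8- to 10-week-old Cdh5(PAC)-CreERT2/PDCD10fl/fl mice, several brains being pooled for each culture, and were grown on collagen I after selection with puromycin. In such cells the Cdh5 promoter drives a tamoxifen-inducible Cre in endothelium, and 4-hydroxy-tamoxifen (4-OHT) deletes the floxed Pdcd10 gene, which encodes CCM3. Cells labelled WT carried the same alleles but received no 4-OHT, so exposure to 4-OHT and the genotype cannot be told apart. The libraries also used here were 3 WT, 2 WT with the same rapamycin treatment (WT+R) and 3 KO with 10 µM propranolol for 24 h (KO+P), whereas the 2 WT libraries with propranolol entered the model only. Libraries held poly(A) RNA without strand, with 22.37 to 26.01 M counts in KO and 20.27 to 25.03 M in KO+R.

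Rapamycin binds FKBP12 and inhibits mTOR complex 1 (mTORC1), a kinase complex that couples amino acids, growth factors and energy to protein, lipid and nucleotide synthesis and holds back autophagy. FKBP12 is also bound to BMP and TGF-beta type I receptors, from which rapamycin can displace it. Loss of a CCM protein in brain endothelium frees the MEKK3 kinase, raises the transcription factors KLF2 and KLF4 and leads to cavernomas, and the question of the comparison was which transcripts of such cells the drug changes.

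The label of the cells was checked first. Pdcd10 (chr3:75423789-75464748, GRCm39) stood at 9.72, 11.0 and 9.73 CPM, which are read counts scaled to a common library size, in KO replicates 1, 2 and 3 and at 8.37, 7.83 and 9.53 CPM in KO+R. The WT libraries had 11.5, 31.2 and 47.0 CPM, so the library labelled WT replicate 1 lay near the KO level and went against its label in this gene. It does not enter the KO+R against KO contrast itself, but it shares the estimate of the spread. The 15 endothelial markers summed to 17041, 15764 and 17904 CPM in KO and to 17750, 17940 and 19211 CPM in KO+R, Cdh5 (VE-cadherin) standing at 3662, 3014 and 3195 CPM in KO and 2774, 2914 and 2907 CPM in KO+R, and 1 of them, Eng, was called higher. Markers of other cell types were low. Mural markers summed to 94.9, 229 and 215 CPM in KO against 466, 332 and 309 CPM in KO+R, with Tagln the most abundant, Kcnj8 and Higd1b at 0. None of the 9 tested was called by edgeR, and DESeq2 with the block called 2. At an unadjusted edgeR p under 0.05 there were 4, of which 2 were lower. The median log2 fold change of the 9 was 0.08, with 5 above and 4 below 0. With only the 6 libraries compared, Tagln and Acta2 were called by edgeR (adjusted p = 0.0378 and 0.0233). Fibroblast markers, led by Col1a1, reached 155 CPM in KO and 204 CPM in KO+R of replicate 3 but stayed between 7.15 and 31.7 CPM in the other cultures. Microglia and macrophage markers summed to 10.4, 17.0 and 27.5 CPM in KO and to 3.76, 6.23 and 10.7 CPM in KO+R. Nearly all of that was Cd68, a lysosomal protein that other cells express too, while C1qb, C1qc and P2ry12 were at 0. Cd68 was called lower, as was Csf1r, with 25 counts over the KO and 1 over the KO+R libraries. Without the block neither was called (edgeR adjusted p = 0.246 and 0.0537), and Csf1r was called in 2 of the 7 fits with 1 library left out. Neuron markers, led by Stmn2 with Gad2, Snap25 and Syt1 at 0, summed to 38.9, 58.6 and 63.2 CPM in KO and to 63.3, 77.0 and 83.9 CPM in KO+R, and oligodendrocyte markers, nearly all Cnp, to 58.6, 50.8 and 48.9 CPM and to 42.3, 36.5 and 35.95 CPM. Of the 4 neuron markers tested 0 were called, 2 lay above and 2 below 0, and the median log2 fold change was −0.31. Stmn2 was at 0.79 and Tubb3 at −1.01. Epithelial and choroid plexus markers stayed between 1.55 and 3.20 CPM, with Ttr and Folr1 at 0. The part of these cells in the results was not tested. The astrocyte markers, mostly Gja1, summed to 41.4 to 71.2 CPM in KO and 37.0 to 60.9 CPM in KO+R.

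Rapamycin changed 739 of 14838 tested genes in KO cells (4.98%), 288 of them higher (1.94%) and 451 lower (3.04%), called at an edgeR adjusted p under 0.05 and a fold change above 1.5 in a model that paired the cultures through a term for replicate number (the replicate block). A further measure of breadth is the 3414 genes (23% of those tested) with an unadjusted p under 0.05. The changes ranged widely in size, 419 of the called genes moving more than 2-fold and 121 more than 4-fold, and the median size among the called genes was 1.11 on the log2 scale. Called genes that fell had a median level of 11.8 CPM, and those that rose had one of 52.6 CPM. In 738 of the 739 genes all 3 cultures moved the same way, against 56.3% of all tested genes. The 739 were selected by their change in these same pairs, so their agreement follows largely from the selection. Replicate 1 responded slightly more than the others, the median size of the change over called genes being 1.18, 1.02 and 1.00 in replicates 1, 2 and 3.

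The number of calls depended on the fit. DESeq2 with the block called 1123 genes, and edgeR with only the 6 libraries compared called 1534. Without the replicate block 224 genes were called, all of them among the 739. Leaving out 1 library lowered the count to 307, 419 and 398 without KO replicate 1, 2 or 3, and to 380, 450 and 382 without KO+R replicate 1, 2 or 3. The excess of lower over higher calls did not hold when a KO+R library was left out, with 195 higher and 185 lower genes without KO+R replicate 1, 262 and 188 without replicate 2, and 193 and 189 without replicate 3. Without WT replicate 1 the count was 708. No gene called in the model and named in the following changed direction in any of these fits. For this contrast, the 7 fits with 1 library left out are the 6 without a KO or KO+R library and the 1 without WT replicate 1. A gene called in 1 of the 7 may thus have lost its call without any 1 of the KO and KO+R libraries, as Castor2 did.

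**Figure D1:**
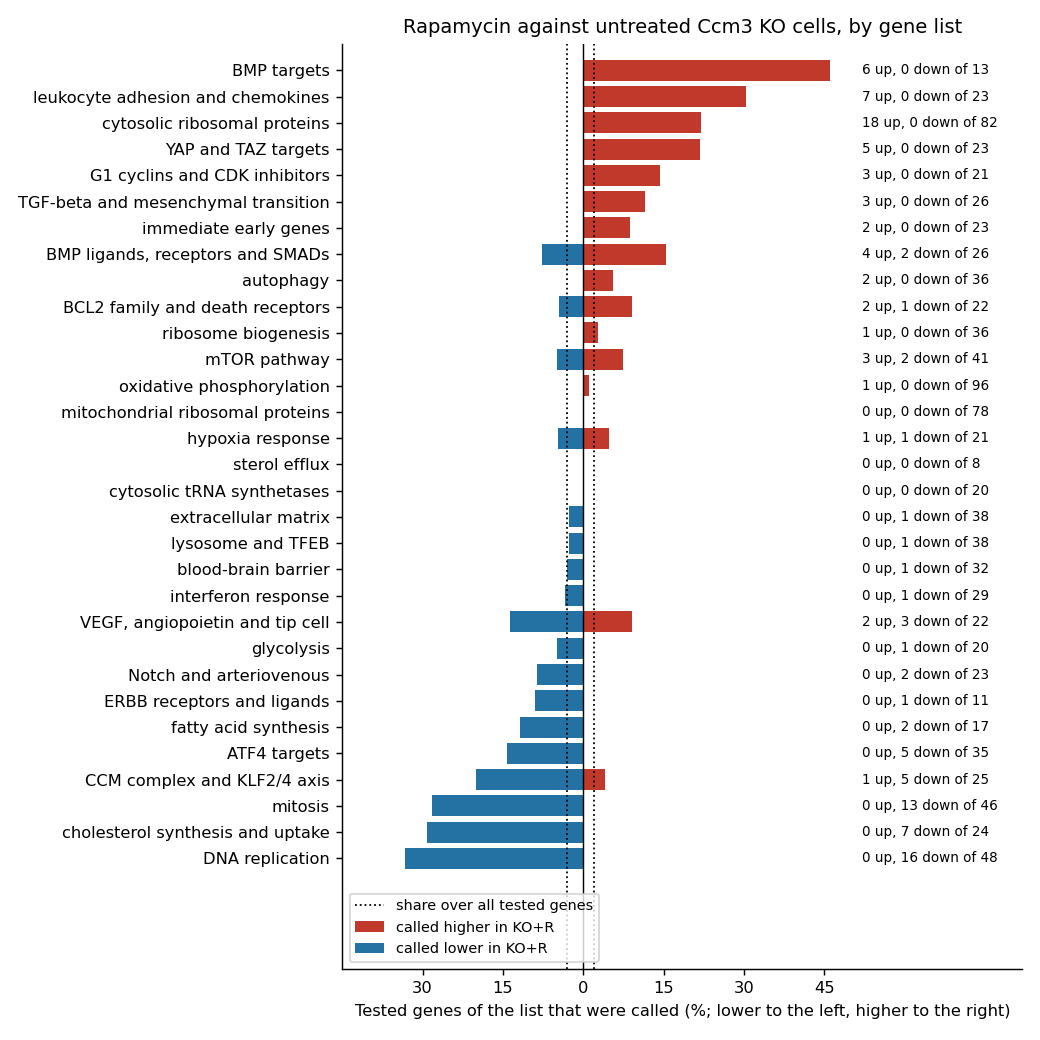
Share of the tested genes of each list that were called lower (blue, to the left) or higher (red, to the right) in KO+R than in KO, in percent, with the dotted lines at the shares over all tested genes (3.04% lower, 1.94% higher). Targets of BMP signalling stand at the top with 6 of 13 genes higher, and DNA replication, cholesterol and mitosis genes at the bottom with 16 of 48, 7 of 24 and 13 of 46 lower.

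Several targets of BMP signalling rose. BMP ligands bind receptors that phosphorylate SMAD1 and SMAD5, and these turn on the Id genes, whose products block basic helix-loop-helix factors, and the inhibitory SMADs that close the loop. Of the 13 BMP target genes tested, 6 rose and 0 fell, and the median log2 fold change was 1.51, against −0.02 over all tested genes. Bambi, Hey2 and Id4 were below 0 without being called (−0.47, −0.29 and −0.92). In the 3 cultures the median was 1.46, 1.89 and 1.29, and 5 of the 6 calls held without the block.

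Id3 (chr4:135870808-135873066) rose from 37.1, 28.1 and 27.5 CPM in KO to 355, 269 and 279 CPM in KO+R, a 9.75-fold change (log2 fold change 3.29, SE 0.16, edgeR adjusted p = 3.4e-06). The ranges were far apart, and the same held for Smad6 (chr9:63860341-63929793), an inhibitory SMAD, which went from 48.6, 37.2 and 42.8 CPM to 242, 281 and 216 CPM (log2 fold change 2.51, SE 0.26). Smad7, the other inhibitory SMAD, went from 16.9, 16.5 and 19.5 CPM to 57.2, 61.6 and 55.7 CPM (log2 fold change 1.72, SE 0.10). Id1 lay between 120 and 128 CPM in KO and between 312 and 329 CPM in KO+R, a 2.59-fold rise. Without KO replicate 2 or 3 its edgeR adjusted p was 0.052 and 0.0513. Id2 rose 3.42-fold from a low level, 2.63, 1.25 and 2.58 CPM, to 7.57, 7.05 and 7.22 CPM. Atoh8, a basic helix-loop-helix factor induced by BMP9 and ALK1 in endothelium, rose 12.3-fold, but its cultures differed more, with 3.56, 0.759 and 2.80 CPM in KO and 43.6, 11.7 and 28.1 CPM in KO+R. It is the target whose call was lost without the block (edgeR adjusted p = 0.127). Id1, Id2 and Id3 share 13.7, 36.2 and 11.8% of their exonic bases with another annotated gene, and without strand those reads cannot be told apart.

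Genes of the pathway itself moved in both directions. Of 26 ligands, receptors and SMADs tested, 4 rose, 2 fell and the median was 0.05. Bmp2, a ligand (chr2:133394079-133404816), fell from 91.6, 57.4 and 55.8 CPM to 8.10, 8.37 and 6.91 CPM, 8.39-fold (log2 fold change −3.07, SE 0.42, edgeR adjusted p = 0.002). Smad1, which carries the BMP signal to the nucleus, fell from 291, 178 and 206 CPM to 97.3, 59.5 and 88.6 CPM (log2 fold change −1.46, SE 0.09). In both genes every KO+R library lay under every KO library. Bmp6, another ligand, rose from 127, 59.3 and 82.8 CPM to 374, 179 and 240 CPM, 2.95-fold. Eng, the endothelial co-receptor endoglin, rose from 1809, 1775 and 2232 CPM to 4012, 3497 and 3968 CPM, and the type II receptor Bmpr2 from 149, 146 and 153 CPM to 243, 268 and 253 CPM. The last of the 4 was Inhba, the subunit of activin A, at 44.5, 101 and 79.7 CPM in KO and 121, 148 and 177 CPM in KO+R, which was called in 2 of the 7 fits with 1 library left out. Bmp6 and Inhba were not called without the block (edgeR adjusted p = 0.0731 and 0.284).

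**Figure D2:**
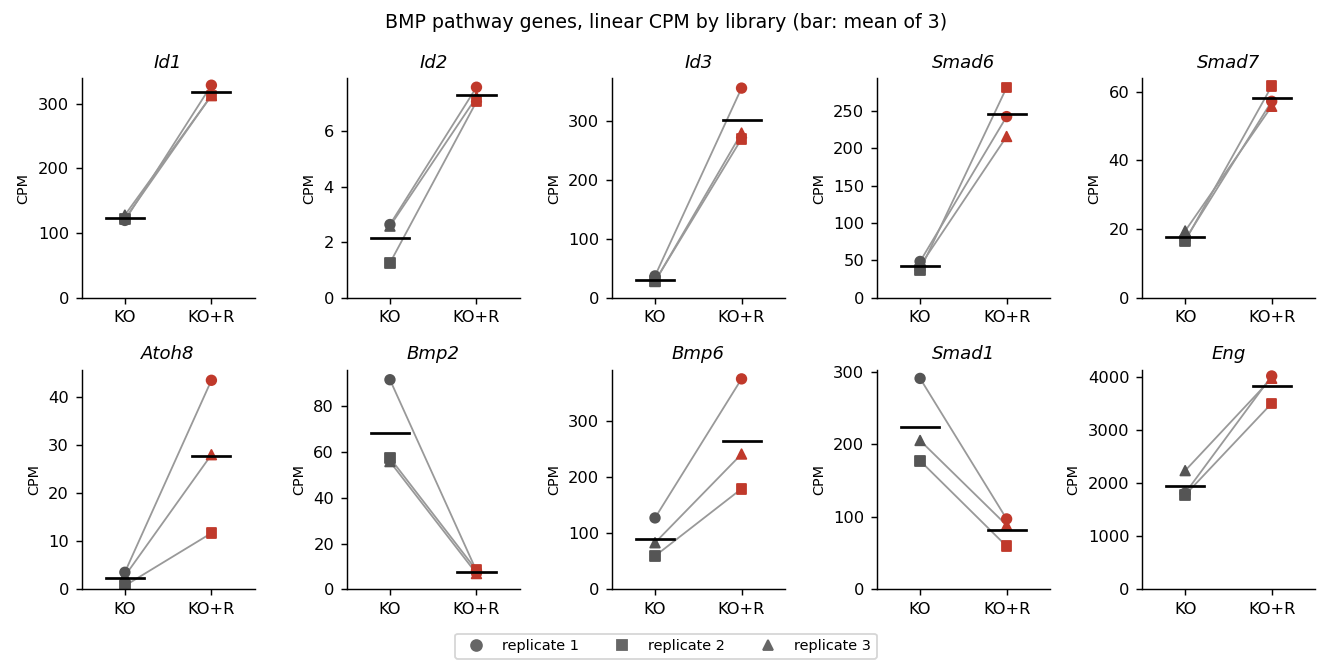
Levels of 10 BMP pathway genes in CPM (linear axes from 0) in the 3 KO and 3 KO+R libraries; lines join libraries of the same replicate number and bars mark the mean of 3. Bmp2 and Smad1 fall and the other 8 rise in every culture, from 28.1 to 269 CPM for Id3 in replicate 2.

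In the TGF-beta and mesenchymal list 3 of 26 genes rose and 0 fell, with a median of 0.15. Among those called, Skil, which encodes the SMAD repressor SnoN, rose from 28.1, 34.2 and 31.7 CPM to 70.5, 97.8 and 89.1 CPM, and Tgfbr1, the type I receptor, by 0.62 on the log2 scale, although Tgfbr1 was called in 2 of the 7 fits with 1 library left out and not without the block (edgeR adjusted p = 0.372). Of 23 targets of the mechanosensitive coactivators YAP and TAZ, 5 rose and 0 fell. The matricellular proteins Ccn2 and Ccn1 rose 3.15- and 2.74-fold, with Ccn2 at 892, 1174 and 816 CPM in KO and 3691, 3070 and 2441 CPM in KO+R. The other 3 were the kinase gene Nuak2 (log2 fold change 1.90), the LIM protein gene Ajuba (0.64) and Amotl2, a YAP inhibitor (0.72). Without the block Ccn1 and Amotl2 were not called (edgeR adjusted p = 0.058 and 0.141), and Amotl2 was called in 2 of the 7 fits with 1 library left out. Ccn2 and Ccn1 share 36.5 and 22.8% of their exonic bases with other genes.

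The axis of the CCM complex and KLF2/4 was described next, as the study asked about it by name. Neither factor was called. Klf2 was at 489, 431 and 572 CPM in KO and at 414, 482 and 581 CPM in KO+R (log2 fold change −0.02, SE 0.41), and Klf4 at 149, 193 and 219 CPM and at 112, 219 and 233 CPM (log2 fold change −0.02, SE 0.37). With errors of this size, changes of about the calling threshold in either direction were not detectable. Of the 25 genes of the list 1 rose and 5 fell, and the median was −0.13. Those that fell were mostly secreted proteases that cleave versican. Adamts4 fell 6.02-fold, from 60.8, 76.5 and 70.7 CPM to 6.35, 13.7 and 16.0 CPM (log2 fold change −2.59, SE 0.27, edgeR adjusted p = 0.00056). Adamts5 fell 4.35-fold from 34.1, 25.997 and 34.0 CPM to 5.45, 6.27 and 9.89 CPM, and Adamts9 3.52-fold from 38.2, 33.8 and 31.8 CPM to 5.35, 12.0 and 12.2 CPM. Adamts9 narrowly lost its call without KO replicate 1 or 3 (edgeR adjusted p = 0.0529 and 0.0505).

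Adamts1 (chr16:85590579-85600009), the protease the study followed, was at 227, 180.5 and 248 CPM in KO and 59.5, 64.7 and 115 CPM in KO+R, so the groups did not overlap (log2 fold change −1.46, SE 0.35, edgeR adjusted p = 0.0299). Its call depended on single libraries. Without KO replicate 1, 2 or 3 the edgeR adjusted p was 0.10, 0.0607 and 0.124, and without KO+R replicate 1 or 2 it was 0.139 and 0.136. Thbs1 (chr2:117941974-117957616), which encodes the angiogenesis inhibitor thrombospondin-1, was the gene that rose, from 1928, 1686 and 1516 CPM to 4689, 3672 and 3355 CPM (log2 fold change 1.18, SE 0.16, edgeR adjusted p = 0.0019), and it kept its call in every fit with 1 library left out. Mef2c, a factor upstream of Klf2, fell from 24.2, 18.6 and 25.8 CPM to 9.27, 12.4 and 16.8 CPM, but it was called in 1 of the 7 fits with 1 library left out and not without the block (edgeR adjusted p = 0.156). Nos3, encoding endothelial nitric oxide synthase, was at 869, 1197 and 1300.3 CPM in KO and 404, 780 and 756 CPM in KO+R, lower in each culture but not called (log2 fold change −0.85, SE 0.31, edgeR adjusted p = 0.12). It was called by DESeq2 with the block (adjusted p = 0.0486) and by edgeR with only the 6 libraries compared (adjusted p = 0.00183). Of its exonic bases 32.7% lie in Atg9b or another gene. For reference, the 3 untreated WT libraries had 156, 88.2 and 67.3 CPM of Adamts1, 3095, 2987 and 3796 CPM of Thbs1 and 269, 276 and 82.8 CPM of Klf2.

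**Figure D3:**
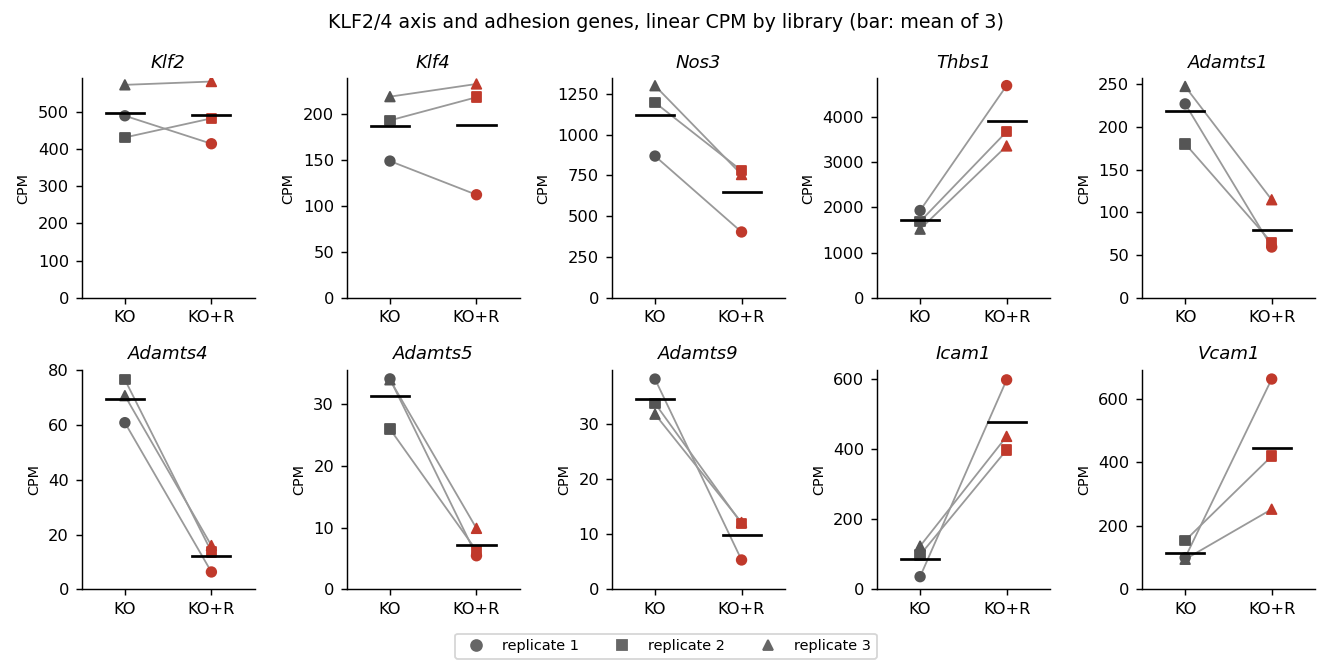
Levels of KLF2/4 axis and adhesion genes in CPM (linear axes from 0) in the 3 KO and 3 KO+R libraries; lines join libraries of the same replicate number and bars mark the mean of 3. Klf2 and Klf4 are lower in replicate 1 and higher in the other cultures, whereas Thbs1, Icam1 and Vcam1 rise and the 4 Adamts genes fall in each culture.

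Several leukocyte adhesion molecules and chemokines rose. Of the 23 tested, 7 rose and 0 fell, 5 lay below 0 without being called, down to −1.90 for the chemokine receptor Ackr3, the median was 0.54, and 5 calls held without the block. Icam1 (chr9:20926672-20940113), the ligand of leukocyte integrins, went from 36.2, 98.2 and 123 CPM to 597, 398 and 436 CPM, 6.65-fold (log2 fold change 2.73, SE 0.50, edgeR adjusted p = 0.008). Its culture-to-culture spread was wide and without KO replicate 1 the edgeR adjusted p was 0.0566. Vcam1, the ligand of integrin alpha4 beta1, rose from 100.1, 154 and 94.9 CPM to 663, 420 and 253 CPM, and Cxcl12, a chemokine for CXCR4, from 282, 398 and 313 CPM to 1086, 1408 and 1111 CPM. The remaining calls were Cxcl16 (log2 fold change 1.95, 84.8% of its exonic bases shared with another gene), the NF-kappaB inhibitor Tnfaip3 (1.01), the atypical chemokine receptor Ackr4 (3.08, under 5 CPM) and Cxcl1 (1.78). In the interferon list 1 of 29 genes was called (3.45%, beside 4.98% of all tested genes), Ifit2, which was lower (−1.25). Cxcl1, Ackr4 and Ifit2 were called in 1, 2 and 3 of the 7 fits with 1 library left out, and without the block Icam1, Cxcl1 and Ifit2 were not called (edgeR adjusted p = 0.0531, 0.135 and 0.422).

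Many genes of cell division fell. DNA replication genes, with 16 of 48 lower and 0 higher, had a median log2 fold change of −0.89, and 47 of the 48 were below 0. The 46 mitosis genes were below 0 without exception, 13 of them called, and the median was −1.54. Summed over the list, the replication genes stood at 1023, 2002 and 1634 CPM in KO and at 565, 1208 and 907 CPM in KO+R. The mitosis genes summed to 493, 1213 and 841 CPM in KO and to 152, 555 and 402 CPM in KO+R. Each culture fell, but the cultures also differed among themselves, replicate 2 with rapamycin lying above replicate 1 without it, and the calls rested on the pairing. Without the block 0 replication and 0 mitosis genes were called by edgeR and 0 by DESeq2, with 3 and 0 at an unadjusted edgeR p under 0.05, whereas DESeq2 with the block called 31 and 37. With 1 of the KO or KO+R libraries left out between 1 and 7 genes of either list were called.

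Mcm6, a subunit of the replicative helicase, went from 44.5, 86.6 and 54.3 CPM to 25.4, 56.7 and 28.5 CPM (log2 fold change −0.77, SE 0.13, edgeR adjusted p = 0.0059). Prim1, the primase subunit that starts DNA strands, went from 8.68, 15.6 and 15.8 CPM to 2.06, 7.79 and 5.52 CPM, and the nucleotide enzyme gene Tyms from 17.3, 24.2 and 20.1 CPM to 5.51, 12.6 and 8.69 CPM. Foxm1, a transcription factor for G2 and mitosis genes, went from 17.5, 43.1 and 35.0 CPM to 6.99, 20.5 and 16.6 CPM (log2 fold change −1.16, SE 0.15). Mcm6 and Foxm1 kept their calls in all 7 fits with 1 library left out, but not without the block (edgeR adjusted p = 0.455 and 0.56). Cyclins A2 and B1, Ccna2 and Ccnb1, fell by 1.89 and 1.66 on the log2 scale. Among G1 regulators 3 of 21 genes were called higher, the retinoblastoma gene Rb1 (0.82), the unconventional cyclin Ccng2 (0.62) and Cdkn1b, which encodes the CDK inhibitor p27 (0.65), and 0 were called lower. The median was −0.07, with 10 genes above and 11 below 0. Ccnd1, the most abundant of them, went from 1667, 3887 and 3210 CPM to 1181, 2926 and 2209 CPM without being called. Without the block Ccng2 and Cdkn1b were not called (edgeR adjusted p = 0.0531 and 0.308), and they were called in 1 and 2 of the 7 fits with 1 library left out.

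**Figure D4:**
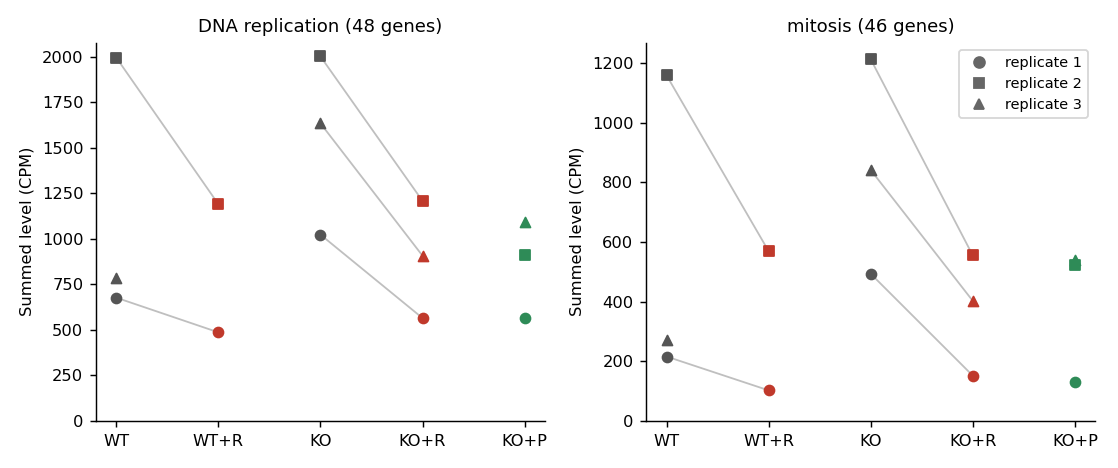
Summed levels in CPM of the 48 DNA replication and the 46 mitosis genes in each library of 5 groups, with lines joining untreated and rapamycin-treated libraries of the same replicate number. In each of the 5 joined pairs the treated library is lower, and the KO+P libraries span 568 to 1094 CPM for replication beside 565 to 1208 CPM in KO+R.

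The DNA replication genes are known to share sites for E2F factors, which RB1 represses. Of the 48, 38 had a promoter window in RefSeq (GRCm38.p6, 250 bases before to 50 after the start), and 22 of these held TTCCCGC or TTGGCGC on either strand, as did 10 of the 15 called genes with a window, against 7.79% of 27018 genes. The matches of both motifs may overlap, and TTGGCGCC also contains the GGCGCC searched in BMP targets. The windows of the 4 called genes with the smallest p-values that hold a match are printed with the matching letters, read on either strand, in capitals:
Mcm6 (chr1:128359656-128359955, minus strand): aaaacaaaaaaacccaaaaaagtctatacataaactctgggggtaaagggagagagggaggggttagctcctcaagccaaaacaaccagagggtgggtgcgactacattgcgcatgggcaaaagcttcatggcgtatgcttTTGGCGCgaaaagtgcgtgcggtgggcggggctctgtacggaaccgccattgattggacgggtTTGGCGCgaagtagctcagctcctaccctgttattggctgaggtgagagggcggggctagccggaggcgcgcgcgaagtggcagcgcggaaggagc
Prim1 (chr10:128014965-128015264, plus strand): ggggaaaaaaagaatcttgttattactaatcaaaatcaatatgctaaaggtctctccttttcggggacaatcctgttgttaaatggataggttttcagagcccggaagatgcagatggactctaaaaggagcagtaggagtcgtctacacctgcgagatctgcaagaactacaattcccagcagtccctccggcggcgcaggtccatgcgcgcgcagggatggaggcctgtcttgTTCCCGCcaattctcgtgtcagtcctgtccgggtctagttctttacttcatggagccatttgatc
Chaf1b (chr16:93883651-93883950, plus strand): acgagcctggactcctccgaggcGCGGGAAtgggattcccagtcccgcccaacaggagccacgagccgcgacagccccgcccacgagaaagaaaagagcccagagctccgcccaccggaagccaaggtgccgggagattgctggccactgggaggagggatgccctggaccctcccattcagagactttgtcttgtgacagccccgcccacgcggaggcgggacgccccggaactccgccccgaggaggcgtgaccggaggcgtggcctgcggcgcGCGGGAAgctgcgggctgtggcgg
Cdt1 (chr8:122567765-122568064, plus strand): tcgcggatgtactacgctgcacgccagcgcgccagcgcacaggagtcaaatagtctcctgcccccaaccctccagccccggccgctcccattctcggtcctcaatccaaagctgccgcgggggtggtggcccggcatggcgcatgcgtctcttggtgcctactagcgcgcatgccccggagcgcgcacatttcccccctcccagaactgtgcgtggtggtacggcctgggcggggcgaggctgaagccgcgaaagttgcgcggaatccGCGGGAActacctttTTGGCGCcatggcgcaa
Mcm6, Chaf1b and Cdt1 thus each held 2 matches and Prim1 held 1. In the other lists searched, GGCGCC was in 4 of 9 BMP targets with a window and 1 of the 4 called (13.4% of all genes), TGATGNAA in 10 of 31 ATF4 targets and 1 of the 3 called (4.51%), and TCACNCCAC in 1 of 17 cholesterol genes and 0 of the 4 called (1.44%).

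Some genes of cholesterol metabolism fell. Of 24 synthesis and uptake genes, 7 fell, 0 rose and the median was −0.37. The called genes changed modestly, Dhcr7, which catalyses the last step of cholesterol synthesis, going from 30.1, 29.0 and 28.6 CPM to 15.9, 18.9 and 17.9 CPM (log2 fold change −0.74, SE 0.12, edgeR adjusted p = 0.0046). Sqle, Idi1, Hsd17b7 and Acat2 of the same route fell by 0.70, 0.86, 0.74 and 0.70 on the log2 scale, and the sterol transporter gene Stard4 by 0.73. Without the block 2 of the 7 calls held, and between 1 and 4 were made with 1 library left out. Of 17 fatty acid synthesis genes the elongase gene Elovl6 and the desaturase gene Scd2 fell, by 1.07 and 1.37, each called in 3 of the 7 fits with 1 library left out and not without the block (edgeR adjusted p = 0.156 and 0.195).

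Targets of ATF4, a factor for amino acid supply that mTORC1 is known to promote, had 5 of 35 genes lower, 0 higher and a median of −0.39. Slc7a5 (LAT1), a transporter of large neutral amino acids, went from 100.2, 87.3 and 93.4 CPM to 24.4, 34.9 and 36.0 CPM (log2 fold change −1.54, SE 0.35, edgeR adjusted p = 0.023), but it was called in 1 of the 7 fits with 1 library left out. The glutamine carrier gene Slc1a5 went from 16.3, 22.7 and 22.4 CPM to 7.94, 8.12 and 10.4 CPM. Stc2, a secreted glycoprotein, fell by 1.94 and the lipoprotein receptor Vldlr by 1.43. Ddit4 (REDD1), an inhibitor of mTORC1, went from 49.5, 38.1 and 40.01 CPM to 24.7, 19.3 and 24.5 CPM. Stc2 and Ddit4 were not called without the block (edgeR adjusted p = 0.119 and 0.123), and Vldlr was called in 3 of the 7 fits with 1 library left out. None of the 20 cytosolic tRNA synthetase genes was called by edgeR or DESeq2, 2 had an unadjusted edgeR p under 0.05, and the median was −0.08.

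Of 41 genes of the mTOR pathway 3 rose and 2 fell, with a median of 0.05. Rictor, the defining subunit of mTORC2, went from 26.5, 31.3 and 27.6 CPM to 42.6, 67.7 and 55.2 CPM, a 1.93-fold rise (SE 0.15 on the log2 scale, edgeR adjusted p = 0.0041). Irs2, which acts between growth factor receptors and mTOR, rose by 1.31, and besides Ddit4 the arginine sensor gene Castor2 fell, by 0.60. Irs2 and Castor2 were each called in 1 of the 7 fits with 1 library left out and not without the block (edgeR adjusted p = 0.294 and 0.0836). Calcoco1 and Map1lc3a (LC3A), 2 of 36 autophagy genes, rose by 0.81 and 0.61, and 1 of 38 lysosomal genes, the proton pump subunit Atp6v1a, fell by 0.61 and was called in 3 of the 7 fits with 1 library left out. Of 36 ribosome biogenesis genes 1, Npm1, rose. The shares called were 12.2% of mTOR pathway, 5.56% of autophagy, 2.63% of lysosomal and 2.78% of ribosome biogenesis genes. Among all tested genes the share was 4.98%.

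Of 82 cytosolic ribosomal protein genes 18 were called higher and 0 lower, with 79 of the 82 above 0 and a median log2 fold change of 0.49. Their summed level was 28408, 23154 and 25913 CPM in KO and 43305, 30176 and 33789 CPM in KO+R. The called genes changed by less than 2-fold, for example Rpl37 from 147, 116 and 126 CPM to 277, 198 and 199 CPM. Their count was unstable, 1 without the block and 2 to 35 with 1 library left out, and these genes share reads with many pseudogene copies. None of 78 mitochondrial ribosomal protein genes was called by edgeR or DESeq2, with 6 at an unadjusted edgeR p under 0.05, and 1 of 96 oxidative phosphorylation genes, Cox7a2l, was, but not without the block (edgeR adjusted p = 0.0635). The mitochondrial share of counts was 2.30, 2.37 and 2.07% in KO and 2.23, 2.90 and 2.30% in KO+R.

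In the VEGF and tip cell list 2 of 22 genes rose and 3 fell, with a median of 0.02. Esm1 (endocan) rose from 118, 55.1 and 35.5 CPM to 257, 143 and 120 CPM and Pdgfb, the recruiter of pericytes, by 0.61. Igfbp3 fell from 746, 151 and 310 CPM to 81.4, 22.5 and 44.3 CPM, 7.89-fold, and the chemokine receptor Cxcr4 from 805, 295 and 363 CPM to 410, 111 and 172 CPM. Without the block Esm1 and Cxcr4 were not called (edgeR adjusted p = 0.244 and 0.591). The Notch ligand Dll4, in this list and the Notch list, fell by 1.06, and Dll1 by 2.13, the 2 genes of 23 called in the Notch list. Dll4 and Dll1 were called in 0 and 1 of the 7 fits with 1 library left out, and without the block neither was (edgeR adjusted p = 0.135 and 0.203). Apart from Slc7a5, none of 32 blood-brain barrier genes was called. In the BCL2 list Bbc3 (PUMA) and Birc3 rose by 0.90 and 0.85, and Bcl2l11 (BIM) fell by 1.21, with edgeR adjusted p of 0.0644, 0.21 and 0.446 without the block. Lrig1, a negative regulator of ERBB receptors, was the 1 of 11 genes called in the ERBB list and fell by 1.79. The shares called were 8.7% of the Notch, 3.12% of the barrier and 9.09% of the ERBB list, beside 4.98% of all tested genes.

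By size of change, the 10 called genes with the largest rises, among those with a mean of at least 1 CPM, the same direction in all 3 cultures and under 10% of exonic bases shared with another gene, included Atoh8, Cfi, Ptprz1, Htra3, Smad6, Amz1, Frat1 and Cdh6. Ptprz1, Htra3, Frat1 and Cdh6 were not called without the block (edgeR adjusted p = 0.12, 0.157, 0.201 and 0.34), and Ptprz1 and Htra3 were called in 2 and 1 of the 7 fits with 1 library left out. Amz1, a peptidase gene, rose from 5.81, 7.48 and 10.1 CPM to 40.9, 33.2 and 56.0 CPM. Cfi, encoding complement factor I, went from under 1 CPM in each KO library to 2.86, 2.91 and 3.03 CPM. The 10 largest falls under the same conditions, which leave out Kif14 because it was at 0 in both libraries of replicate 1, were Duox2, Slc38a3, Tmem132c, Clca2, Dlgap3, Gm15681, Fxyd6, Sstr2, Dpp4 and Cldn4. Of these, Slc38a3 and Tmem132c were called in 3 and 2 of the 7 fits with 1 library left out and not without the block (edgeR adjusted p = 0.056 and 0.068). Duox2, an oxidase that makes hydrogen peroxide, had 138, 37 and 51 counts in KO and 0, 0 and 1 in KO+R, a ratio of 199 with an exact 95% interval of 35.3 to 7890 that covers counting error only. Fxyd6, a regulator of the sodium pump, fell from 60.7, 30.6 and 21.5 CPM to 3.39, 4.22 and 2.45 CPM, Dlgap3 from 24.2, 17.9 and 15.5 CPM to 1.11, 1.76 and 1.34 CPM, and the peptidase gene Dpp4 from 50.8, 12.7 and 18.96 CPM to 1.80, 2.46 and 3.25 CPM.

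Whether the response depended on Ccm3 was asked by setting it beside that of WT cells, which shares no library with it although the cultures are numbered alike. WT+R against WT gave 677 called genes (4.56%), and 405 without the library labelled WT replicate 1 that went against its label in Pdcd10. Without WT replicate 2, WT+R replicate 1 or WT+R replicate 2 the count was 443, 101 and 406. Of the 739 genes called in KO cells, 733 (99.2%) had the same sign in WT cells, as did 77.0% of all tested genes, and 415 were called in both, which is 56.2% of the KO list and 61.3% of the WT list. Across the 739 genes the log2 fold changes of KO and WT cells had a Pearson r of 0.87, and across all tested genes one of 0.55. Both values describe genes that are not independent, and the 739 were selected by their change in KO cells. A test of the difference between the genotypes called 0 genes by edgeR, with 287 genes (1.93%) at an unadjusted p under 0.05 and a smallest edgeR adjusted p of 0.143, and DESeq2 called 7 with the block and 1 without it.

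Id3 was among the 5 genes with the smallest p-values in that test. Without the drug it was at 28.1 CPM in KO replicate 2 and 94.9 CPM in WT replicate 2, and with it at 396 and 339 CPM in the 2 WT+R libraries beside 269 to 355 CPM in KO+R. Its log2 fold change was 3.29 in KO and 1.83 in WT cells. The difference of 1.45 (SE 0.23) had an edgeR adjusted p of 0.333, and 3.0e-05 by DESeq2 with the block. Kif14, a mitotic kinesin, had 0, 7.55 and 3.86 CPM in KO and 1 count in all in KO+R, but 3.48 CPM in 1 WT+R library against 0.0374 CPM in its untreated pair. Lhx6 and the retinoic acid hydroxylase gene Cyp26b1 were higher with rapamycin in WT cells (log2 fold change 1.22 and 4.05) and at −0.49 and 0.09 in KO cells, and Abca4 was lower by 2.41 in WT and by 1.06 in KO cells. None of the 5 differences passed the edgeR test in the model of all libraries. With only the libraries of the contrast Id3 and Kif14 passed it, as did Kif14 with no filter on low counts (edgeR adjusted p = 0.00081), and by DESeq2 with the block Lhx6, Cyp26b1 and Abca4 passed (adjusted p = 0.00052, 0.00052 and 0.0334). The list medians in WT cells were 1.17 for BMP targets, −0.57 for DNA replication, −0.92 for mitosis, −0.37 for cholesterol and 0.77 for adhesion genes.

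**Figure D5:**
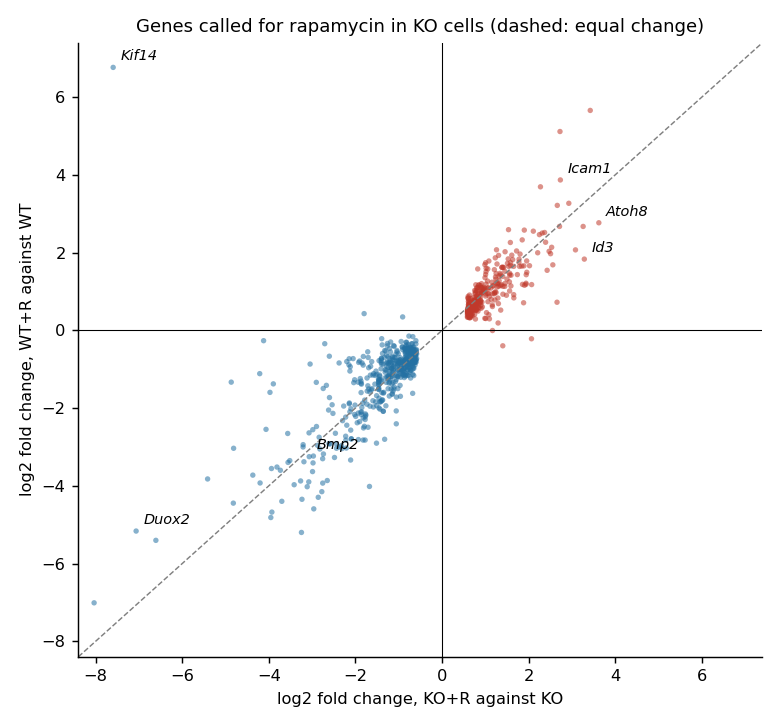
Log2 fold change with rapamycin in KO cells (x axis) and in WT cells (y axis) for the 739 genes called in KO cells, red where higher and blue where lower in KO+R; the dashed line marks equal change. All but 6 of the points have the same sign on both axes, and Kif14 is the farthest from the line.

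Rapamycin and propranolol were compared directly in KO cells. KO+R differed from KO+P in 1428 genes (9.62%), 594 higher (4%) and 834 lower (5.62%) in KO+R, and in 606 without the block. Leaving out KO+P replicate 1 or 2 gave 641 and 700, leaving out KO+R replicate 1 or 2 gave 672 and 739, and without KO+P replicate 3 there were 2112. BMP targets were higher with rapamycin, 7 of 13, and Atoh8 was at 0.375, 0 and 1.55 CPM in KO+P. Of the cholesterol and ATF4 lists, 22 of 24 and 31 of 35 genes were lower in KO+R. The ATF4 targets summed to 1566, 1641 and 1695 CPM in KO+R, to 8915, 5548 and 3057 CPM in KO+P and to 1810, 2016 and 2001 CPM in KO. The KO+R libraries thus lay a little under KO and the KO+P libraries above both. By size, the 5 largest falls against KO+P were Adm2, Sox11, Gng4, Bcat1 and Mfsd2a, and the 5 largest rises included Atoh8, Htra3, Slco1a4 and Kirrel3. Without the block Slco1a4 and Kirrel3 were not called (edgeR adjusted p = 0.117 and 0.0589), and Slco1a4 was called in 4 of the 7 fits with 1 library left out. Bcat1, which transaminates branched-chain amino acids, was at 0.265, 0.738 and 1.43 CPM in KO+R against 27.2, 19.6 and 5.78 CPM in KO+P. Of the replication and mitosis genes, 0 of 48 and 0 of 46 were called between the drugs by edgeR, with 1 and 1 at an unadjusted p under 0.05 and medians of −0.04 and −0.12, and DESeq2 with the block called 1 and 0. Propranolol against KO gave 21 called genes (0.142%), and 1579 without KO+P replicate 3. Both drug comparisons with KO share the 3 KO libraries, against which the medians were −0.89 and −1.54 with rapamycin and −0.97 and −1.34 with propranolol, and whether the level of these untreated libraries plays a part was not tested.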

How the data were processed

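RNA-seq of 16 mBMEC libraries was analysed from 1 table per library, and groups and replicate numbers were taken from the labels. Each table, deposited by the authors in Salmon format, gives expected counts, TPM values and effective lengths of transcripts. The submitters' processing notes name Salmon 1.5.2, STAR, HTSeq 0.13.5 and GRCm39, whereas the study's methods describe counting with HTSeq. Salmon divides a read among all transcripts that match it, which makes near-identical genes uncertain. The authors' TPM values served for no test and their effective lengths only for an alternative offset. Expected counts were summed over GENCODE vM39 genes (99.12% of transcripts matched without version) and rounded.

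Genes were filtered with filterByExpr, scaled by TMM (factors 0.934 to 1.041) and tested with edgeR 4.0.16 by quasi-likelihood F-tests in 1 model of all 16 libraries with group and replicate number (8 residual degrees of freedom), with Benjamini-Hochberg adjustment. CPM values are TMM-scaled, and SE is the log2 fold change over the root of F. The biological coefficient of variation was 19%, and 32.3% without the block. The numbers paired the libraries, since deviations from the group means correlated at 0.62, 0.597 and 0.414 for KO and KO+R libraries of the same number and between −0.49 and −0.03 for different numbers. This pairing comes from the values. The study states that replicates were separate cultures.

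The comparison and gene lists were chosen with earlier results of these data known. Genes named were those the study names for rapamycin, the 10 largest rises and falls among called genes (mean of at least 1 CPM, same direction in 3 pairs, under 10% of exonic bases shared), up to 4 called members per list by p-value, or the 2 most abundant where none was called, the 5 smallest p-values of the interaction, and the 5 largest rises and falls against KO+P. A few genes that these rules name are not reported here. Other list members were named as called or after their values were seen. Fits were tested on simulated counts drawn without differences between cultures, so this test cannot decide between fits with and without the block. Alternatives were no block, DESeq2 1.42.0, RLE factors, no filter, effective lengths, glmTreat, only the libraries compared, and 1 library left out. The number of columns without a sample was 0, and no 2 libraries were identical.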

Additional observations from a re-analysis of the deposited data

How the results depend on the processing

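All 127 genes followed as called for rapamycin in KO cells kept their direction in every alternative that gave a value. Of these, 51 kept their call without the replicate block, 75 with DESeq2 without it, 127 with DESeq2 with it, 125 with RLE size factors, 107 with effective lengths, and 50 in all 7 fits that left out 1 library. The counts of called genes varied more. For KO+R against KO (739) they were 224 with no replicate block, 1123 by DESeq2 with the block, 473 by DESeq2 without it, 1534 with only the 6 libraries compared, and 116 with glmTreat against 1.5-fold. With 1 library left out they were 307 to 450 without a KO or KO+R library and 708 without WT replicate 1. For the interaction (0) they were 7 and 1 by DESeq2 with and without the block, 1 with no filter, 3 with only the libraries compared and 0 to 0 with 1 library left out. For KO+R against KO+P (1428) they were 606 with no block, 827 with only the libraries compared, 281 with glmTreat and 641 to 2112 with 1 library left out. For WT+R against WT (677) they were 207, 1392, 125 and 101 to 648 under the same settings. For KO+P against KO (21) they were 1, 3, 3 and 0 to 1579, the highest without KO+P replicate 3, and 933 and 164 by DESeq2 with and without the block and 194 with no filter. The cause of these shifts was not tested. Values near 0 changed sign for Klf2 (0.0023 by DESeq2 with no block, 0.0045 with only the libraries compared) and Klf4 (0.0063 with no block, 0.023 by DESeq2 with no block). With 1 library left out the log2 fold changes ranged from −0.28 to 0.21 for Klf2, −0.38 to 0.25 for Klf4, −0.073 to 0.12 for Rars1, −0.65 to 0.60 for Col1a1, −0.54 to 0.59 for Col1a2, −0.31 to 0.035 for Gja1, −0.43 to 0.10 for Aqp1 and −0.23 to 0.021 for Mrpl33, none of them called. Depth limits statements on genes under 1 CPM.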

Other observations

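Immediate early genes, which respond to growth factors and stress within minutes, had 2 of 23 tested members called higher with rapamycin in KO cells and 0 lower, with a median log2 fold change of 0.10. Ier3 rose from 129, 69.2 and 97.5 CPM to 366, 190 and 205 CPM (log2 fold change 1.35, SE 0.12, edgeR adjusted p = 0.0002), although 34.8% of its exonic bases lie in another gene, and Junb, a subunit of the AP-1 factor, rose from 104.4, 138.6 and 120.0 CPM to 283, 213 and 200 CPM (log2 fold change 0.92). Among 21 genes of the hypoxia response Ndrg1 rose, from 207, 70.1 and 92.5 CPM to 405, 257 and 305 CPM (log2 fold change 1.56, SE 0.36, edgeR adjusted p = 0.0255), Ddit4 fell by 0.89 and the median was 0.02. The shares called were 8.7% of immediate early and 9.52% of hypoxia genes, beside 4.98% of all tested genes. Ndrg1 was called in 2 of the 7 fits with 1 library left out and not without the replicate block (edgeR adjusted p = 0.445), where Ier3 was not called either (edgeR adjusted p = 0.135).

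Of 20 glycolysis genes 1 was called, Pkm, encoding pyruvate kinase, which fell from 2311, 1902 and 1917 CPM to 1163, 1228 and 1136 CPM (log2 fold change −0.80, SE 0.18) and shares 40.6% of its exonic bases with another gene. Of 38 extracellular matrix genes 1 was called, the laminin chain gene Lamc1, which fell from 461, 570 and 403 CPM to 284, 325 and 287 CPM (log2 fold change −0.67, SE 0.14). In both genes every KO+R library lay under every KO library, but Pkm and Lamc1 were called in 1 and 2 of the 7 fits with 1 library left out, and Lamc1 was not without the block (edgeR adjusted p = 0.0531). The shares called were 5% of glycolysis and 2.63% of matrix genes, beside 4.98% of all tested genes. None of 8 sterol efflux genes was called by edgeR in the model of all libraries or by DESeq2, 1 had an unadjusted edgeR p under 0.05, and Apoe, its most abundant gene, had a log2 fold change of 0.73 and was called with only the 6 libraries compared (edgeR adjusted p = 0.00071).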
